A study of Mus musculus with 4 samples.

Results

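Autophagy delivers cytoplasmic cargo to lysosomes in double-membraned vesicles called autophagosomes. A kinase complex around ULK1 starts the process, a class III phosphatidylinositol 3-kinase complex marks the membrane, and ATG9, ATG2 and WIPI proteins enlarge it. Ubiquitin-like conjugation then joins proteins of the ATG8 family (LC3 and GABARAP) to lipid, and receptors such as p62 bring cargo to them. In osteoblasts, autophagy has been linked to matrix mineralisation and to survival under stress.

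The autophagy machinery was taken here as 34 mouse genes chosen by symbol for their known roles, of which 33 were measured among the 19938 named genes of the array and 1, Optn, was not analysed here. Where a gene had several features, the one with the greatest mean value was used. All 33 lay above the 40th percentile of genes on every array, a floor of 5.95 to 6.01 on the log2 scale. The cells were of the MC3T3-E1 line, mouse pre-osteoblasts that come from C57BL/6 calvaria, held in proliferation medium with 1% fetal bovine serum. The 4 groups were cells given the antidepressant citalopram, which blocks the serotonin transporter, at 0.0001 mol per litre for 7 days, untreated control cells at day 7, cells given the same dose for 3 days, and untreated control cells at day 3. Each group had 1 array, so a difference between 2 arrays has no replicate check and carries no p-value, and the number of arrays limits the precision. A p-value was had only from a limma fit over all 4 arrays, whose p-values set the mean of a gene's 2 differences against a spread that rests on 1 residual degree of freedom and on all genes. For each gene, that degree of freedom measures only how far its citalopram difference at day 7 departs from that at day 3. A change that depends on the day therefore widens the spread, and no replicate arrays enter it. The p-values for day use the same spread. The labels give 3 wells per treatment and do not say whether these were pooled or whether the cultures were separate. How much of the spread is technical is therefore not known.

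Array medians over all features were 6.50 to 6.66, and pairs of arrays correlated with r = 0.986 to 0.995 over all features. All 9 measured pre-osteoblast and mesenchymal markers lay above the floor on at least 1 array. Alpl was under it on both citalopram arrays, and Runx2 was not measured. By the same count, 3 of 6 macrophage, 1 of 5 endothelial, 0 of 4 adipocyte, 2 of 4 epithelial and 2 of 4 skeletal muscle markers lay above it. So did 12415 of all 19938 genes. Of 11 measured proliferation genes, 11 were lower with citalopram at day 7 (median log2 difference -0.59) and 9 were lower at day 3 (median -0.19). Of all genes above the floor, 51.3% were higher at day 7 (median 0.01) and 57.7% at day 3 (median 0.03). The proliferation genes included the mitotic kinase genes Bub1 (-0.80 at day 7 and -0.38 at day 3), Cdk1 (-0.64 and -0.25), Aurkb (-0.70 and -0.19) and Plk1 (-0.59 and -0.28), and also Rrm2 (-0.63 and -0.19), Ccna2 (-0.59 and -0.16) and Top2a (-0.49 and -0.49). Their part in the autophagy values was not tested.

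Transcription factors of the MiT/TFE family, TFEB and TFE3 among them, are known to bind an E-box of the letters CACGTG in promoters of autophagy and lysosome genes. In RefSeq promoters of build GRCm38.p6 (300 bases around a start site, both strands searched), 28 of the 34 genes had an entry, with 33 promoters in all, and CACGTG was found in 4 of the 33, of the genes Atg14, Atg3, Atg5 and Atg7. The motif, which is its own reverse complement, was present in 7.15% of all 32851 promoters of this length. The longer form GTCACGTG, which contains it, was found in Atg14, Atg3 and Atg7 and in 2.25% of all promoters. TGTTTAC, bound by FOXO factors, was found in 0 of the 28 genes (3.65% of all promoters), and TGATGNAA, a form of the site bound by ATF4, in 0 (3.97%). A match describes the letters and does not show a bound site.

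The 4 stretches with an E-box are shown for their letters. Whether expression differs between genes with and without the motif was not tested. Capitals mark CACGTG, extended to GTCACGTG or its reverse complement where those letters are there. The Atg14 promoter is shown whole, at chr14:47568385-47568684 on the minus strand, with an E-box that begins 1 base before the start site and spans it. The Atg3 stretch, at chr16:45158708-45158790 on the plus strand, holds 2 E-boxes, beginning 94 and 71 bases before the start. The Atg5 stretch is at chr10:44268298-44268357 on the plus strand, with the E-box beginning 14 bases before a start that lies 17 bases inside the annotated gene. The Atg7 stretch is at chr6:114670937-114670996 on the plus strand, with the E-box beginning 132 bases before an alternative start that lies 27969 bases inside the annotated gene.
Atg14: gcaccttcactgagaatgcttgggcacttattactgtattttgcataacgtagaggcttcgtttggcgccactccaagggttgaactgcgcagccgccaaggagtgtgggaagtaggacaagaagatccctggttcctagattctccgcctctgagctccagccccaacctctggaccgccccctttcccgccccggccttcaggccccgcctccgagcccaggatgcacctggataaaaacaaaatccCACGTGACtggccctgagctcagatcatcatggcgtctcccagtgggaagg
Atg3: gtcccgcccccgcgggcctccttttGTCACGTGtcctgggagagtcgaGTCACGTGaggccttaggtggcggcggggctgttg
Atg5: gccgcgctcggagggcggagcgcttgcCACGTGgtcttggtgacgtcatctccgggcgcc
Atg7: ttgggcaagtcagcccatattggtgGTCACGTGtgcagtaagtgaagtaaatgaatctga

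The autophagy genes differed little between citalopram and control. At day 7, 22 of 33 were higher with citalopram (66.7%, median log2 difference 0.04), beside 51.3% of all 12167 genes above the floor (median 0.01). In RNA from whole wells, fewer cells of a kind and less RNA per cell cannot be told apart. At day 3, 21 of 33 were higher (63.6%, median 0.05), beside 57.7% of 12196 genes (median 0.03). The median size of the difference, whatever its sign, was 0.09 in autophagy genes and 0.13 in all genes at day 7, and 0.10 and 0.11 at day 3. After each array was centred on its median, 15 of 33 were higher at day 7 (median -0.01, beside -0.05 in all genes). At day 3, 20 were higher after centring (median 0.04, beside 0.02 in all genes).

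At least 1.2-fold (a log2 difference of 0.26) was reached with citalopram at day 7 by 3 of 33 genes in the higher direction (9.09%, against 9.86% of all genes) and by 0 in the lower (against 9.07%). At day 3 it was reached by 2 in the higher direction (6.06%, against 8.94%) and by 1 in the lower (3.03%, against 4.96%). These shares were near or below those of all genes. None of the 33 reached 1.5-fold, as 1.5% of all genes did at day 7 and 0.804% at day 3, and 0 reached 1.2-fold at both days (2.01% of all genes were at least 1.2-fold higher at both).

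Over both days, limma called 0 of 33 autophagy genes for citalopram, as it called 0 of all 12415 genes tested (0.0%; smallest adjusted p 0.249). At an unadjusted p under 0.05, limma had 1 of the 33, Atg14 (adjusted p 0.54), and 1119 of all genes. Fits after quantile normalization, cyclic loess and median centring, with a trend, with other floors and without day as a term also called 0 of the 33.

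**Figure D1:**
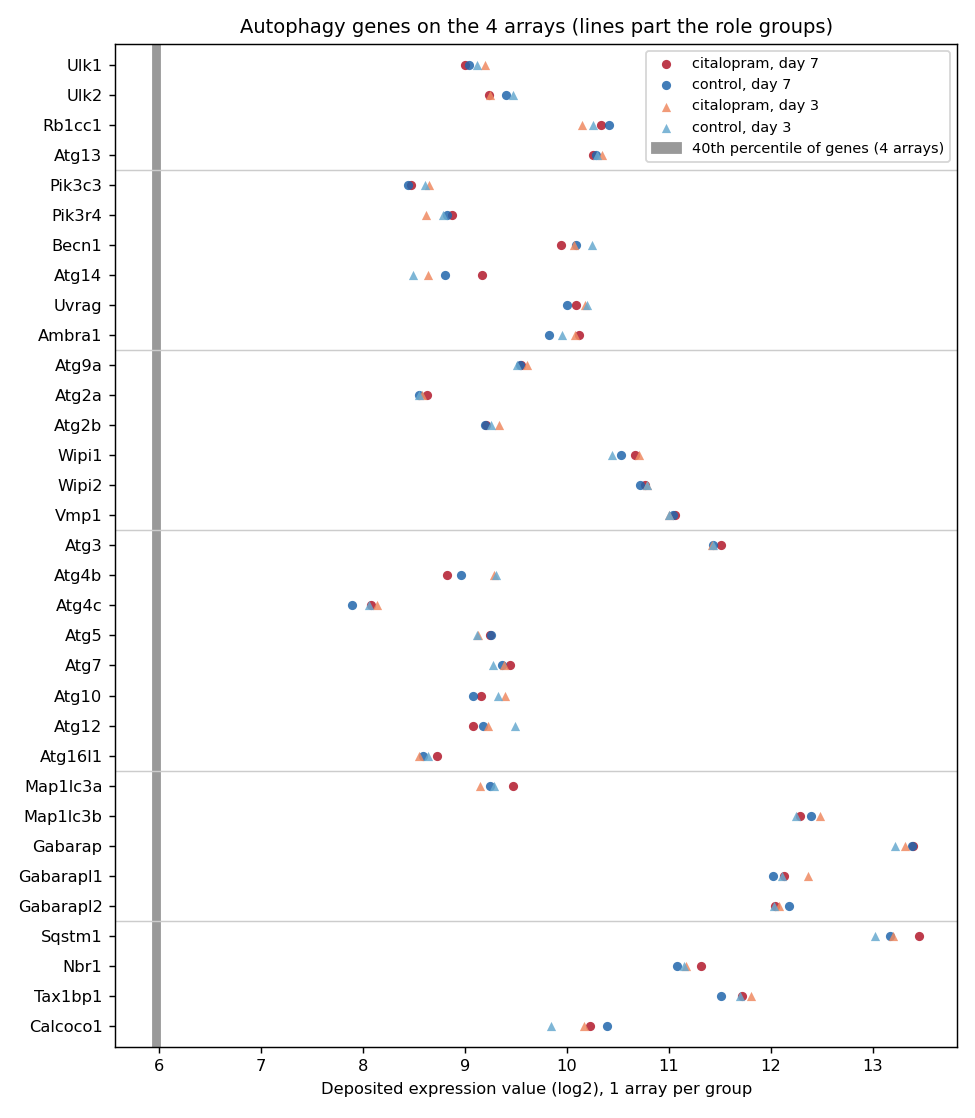
Deposited log2 values (x axis) of the 33 measured autophagy genes, a row each, in 6 role groups parted by lines; each point is 1 array, for citalopram and control at day 7 (circles) and at day 3 (triangles), and the grey band spans the floors of 5.95 to 6.01. All genes sit above the band, and the 4 points of a gene span at most 0.68, in Atg14; levels are not comparable between genes, since each feature has its own brightness.

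The ULK complex holds the kinases ULK1 and ULK2, the scaffold FIP200 (Rb1cc1) and ATG13. All 4 genes were slightly lower with citalopram at day 7 (-0.17 to -0.03), where 51.3% of all genes were higher. At day 3, 2 were higher and 2 lower, where 57.7% of all genes were higher. Ulk2 read 9.24 with citalopram and 9.41 in control at day 7, and 9.25 with citalopram and 9.47 in control at day 3. Both citalopram arrays lay below both control arrays, by 0.17 at day 7 and 0.23 at day 3 (limma change -0.20, SE 0.10, adjusted p 0.649). Here and below, the share of all genes whose arrays part by treatment was not counted, so such a parting only describes the 4 arrays. Rb1cc1 read 10.33 with citalopram and 10.41 in control at day 7, and 10.15 with citalopram and 10.26 in control at day 3. For Rb1cc1 the day 7 arrays were the higher ones in both treatments, by 0.18 with citalopram and 0.15 in control, and the citalopram difference was -0.08 at day 7 and -0.11 at day 3. The other 2 genes, Ulk1 and Atg13, differed by -0.04 and -0.03 at day 7 and by 0.08 and 0.05 at day 3.

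The class III kinase complexes are built on the catalytic subunit VPS34 (Pik3c3), its regulatory subunit VPS15 (Pik3r4) and Beclin 1, to which ATG14 adds for early steps and UVRAG for later ones. Atg14 read 9.17 with citalopram and 8.81 in control at day 7, and 8.64 with citalopram and 8.49 in control at day 3. It was higher on the citalopram array of each day, 1.29-fold at day 7 (log2 difference 0.37) and 1.11-fold at day 3 (0.15), and both day 7 arrays lay above both day 3 arrays. At day 7, 4.06% of all genes had a more positive difference, and at day 3, 22.2% did. Limma's change for citalopram was 0.26 with an SE of 0.11. The remaining E-box genes stood at 0.08 (Atg3), -0.01 (Atg5) and 0.08 (Atg7) at day 7, and at -0.01, 0.01 and 0.11 at day 3.

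Ambra1, whose product binds Beclin 1, read 10.12 with citalopram and 9.82 in control at day 7, and 10.08 with citalopram and 9.95 in control at day 3. Both citalopram arrays lay above both control arrays, with differences of 0.29 (1.23-fold) and 0.13 (limma's adjusted p 0.643). Becn1 itself lay the other way, at 9.95 with citalopram and 10.09 in control at day 7, and at 10.07 with citalopram and 10.25 in control at day 3. The differences were -0.14 and -0.18, and both citalopram arrays lay below both control arrays. The citalopram array of day 3 and the control array of day 7 nearly coincided (10.07 and 10.09).

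Pik3c3 read 8.47 with citalopram and 8.44 in control at day 7, and 8.65 with citalopram and 8.61 in control at day 3, so that it hardly differed with citalopram (0.03 and 0.04). Pik3r4 read 8.88 with citalopram and 8.83 in control at day 7, and 8.62 with citalopram and 8.79 in control at day 3. Its citalopram difference was 0.05 at day 7 and -0.16 at day 3, and the array of citalopram at day 3 was the low one. Uvrag differed by 0.09 and -0.03.

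Among genes for membrane supply, Wipi1, which encodes a phosphoinositide-binding protein of the growing membrane, differed most. Wipi1 read 10.67 with citalopram and 10.53 in control at day 7, and 10.71 with citalopram and 10.44 in control at day 3. Both citalopram arrays were above both control arrays, by 0.13 at day 7 and 0.27 (1.21-fold) at day 3, where 8.32% of all genes had a more positive difference (limma's adjusted p 0.649). The other 5 genes were nearly flat, with differences of 0.00 to 0.08 at day 7 and -0.00 to 0.10 at day 3: Wipi2, the lipid scramblase gene Atg9a, the lipid transfer genes Atg2a and Atg2b, and Vmp1, of an endoplasmic reticulum membrane protein. Atg2b has 2 features that disagree, as seen after its values were known: the one used was at 0.01 and 0.08, and the other at 0.32 and -0.02.

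In the conjugation system, ATG7 acts as the activating enzyme, ATG3 and ATG10 as conjugating enzymes, ATG12, ATG5 and ATG16L1 form the ligase complex, and ATG4 proteases trim and release ATG8 proteins. At day 7, 5 of the 8 genes were higher with citalopram and 3 were lower (median 0.08), beside 51.3% of all genes higher. At day 3, 4 were higher and 4 lower (median 0.00), beside 57.7% higher. Atg12 read 9.08 with citalopram and 9.18 in control at day 7, and 9.22 with citalopram and 9.49 in control at day 3. The difference was -0.09 at day 7 and -0.26 at day 3, just past 1.2-fold and the lowest of the 33 at day 3, where the control array was the high one (limma's adjusted p 0.714). Atg4b read 8.82 with citalopram and 8.97 in control at day 7, and 9.29 with citalopram and 9.31 in control at day 3. For Atg4b the days differed more than the treatments, whose difference was -0.15 at day 7 and -0.03 at day 3.

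Atg16l1 read 8.73 with citalopram and 8.59 in control at day 7, and 8.55 with citalopram and 8.64 in control at day 3. Its citalopram difference was on the higher side at day 7 (0.14) and on the lower side at day 3 (-0.09). Atg10 read 9.16 with citalopram and 9.08 in control at day 7, and 9.40 with citalopram and 9.33 in control at day 3, a difference of 0.08 at day 7 and 0.07 at day 3. The other 4 genes, Atg3, Atg4c, Atg5 and Atg7, lay between -0.01 and 0.19 at day 7 and between -0.01 and 0.11 at day 3.

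The ATG8 family holds the lipid-linked proteins that mark autophagosomes, and its 5 genes differed in sign and size. Map1lc3a read 9.47 with citalopram and 9.25 in control at day 7, and 9.15 with citalopram and 9.29 in control at day 3. Map1lc3b read 12.29 with citalopram and 12.40 in control at day 7, and 12.48 with citalopram and 12.25 in control at day 3. The LC3 genes ran in opposite ways: the citalopram difference of Map1lc3a was 0.23 at day 7 and -0.14 at day 3, and that of Map1lc3b was -0.11 at day 7 and 0.23 at day 3. A second feature of Map1lc3b gave -0.11 and 0.24, and whether the features match a single gene copy is not given in the sources here.

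Gabarapl1 read 12.13 with citalopram and 12.03 in control at day 7, and 12.36 with citalopram and 12.11 in control at day 3. Both citalopram arrays lay above both control arrays, by 0.10 at day 7 and by 0.26 at day 3, just short of 1.2-fold (limma's adjusted p 0.704). The citalopram array of day 7 and the control array of day 3 nearly coincided (12.13 and 12.11). Gabarap read 13.39 with citalopram and 13.39 in control at day 7, and 13.32 with citalopram and 13.22 in control at day 3. Gabarapl2 read 12.05 with citalopram and 12.18 in control at day 7, and 12.08 with citalopram and 12.03 in control at day 3. Gabarap thus differed by 0.00 and 0.10, and Gabarapl2 by -0.13 and 0.05. Gabarapl2 has a second feature whose values of 5.48 to 5.61 were under the floor, and it was not used.

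The measured receptors were p62 (Sqstm1), NBR1, TAX1BP1 and CALCOCO1, which link cargo, often ubiquitinated, to ATG8 proteins; p62 is also a known target of the antioxidant factor NRF2. At day 3, 4 of 4 were higher with citalopram (median 0.14), beside 57.7% of all genes. At day 7, 3 of 4 were (median 0.22), beside 51.3%. Sqstm1 read 13.45 with citalopram and 13.17 in control at day 7, and 13.20 with citalopram and 13.02 in control at day 3. Both citalopram arrays lay above both control arrays, by 0.28 at day 7 (1.22-fold) and 0.18 at day 3, and limma's change was 0.23 with an SE of 0.11 (adjusted p 0.572). The citalopram array of day 3 and the control array of day 7 nearly coincided (13.20 and 13.17). At day 7, 8.29% of all genes had a more positive difference. Nbr1 and Tax1bp1 were at 0.23 and 0.21 at day 7 and at 0.02 and 0.11 at day 3.

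Calcoco1 read 10.23 with citalopram and 10.39 in control at day 7, and 10.17 with citalopram and 9.84 in control at day 3. The control array of day 3 was the low one, and the other 3 lay within 0.22 of each other. The citalopram difference was therefore -0.16 at day 7 and 0.33 (1.26-fold) at day 3, the highest of the 33 at day 3, where 4.58% of all genes had a more positive one.

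**Figure D2:**
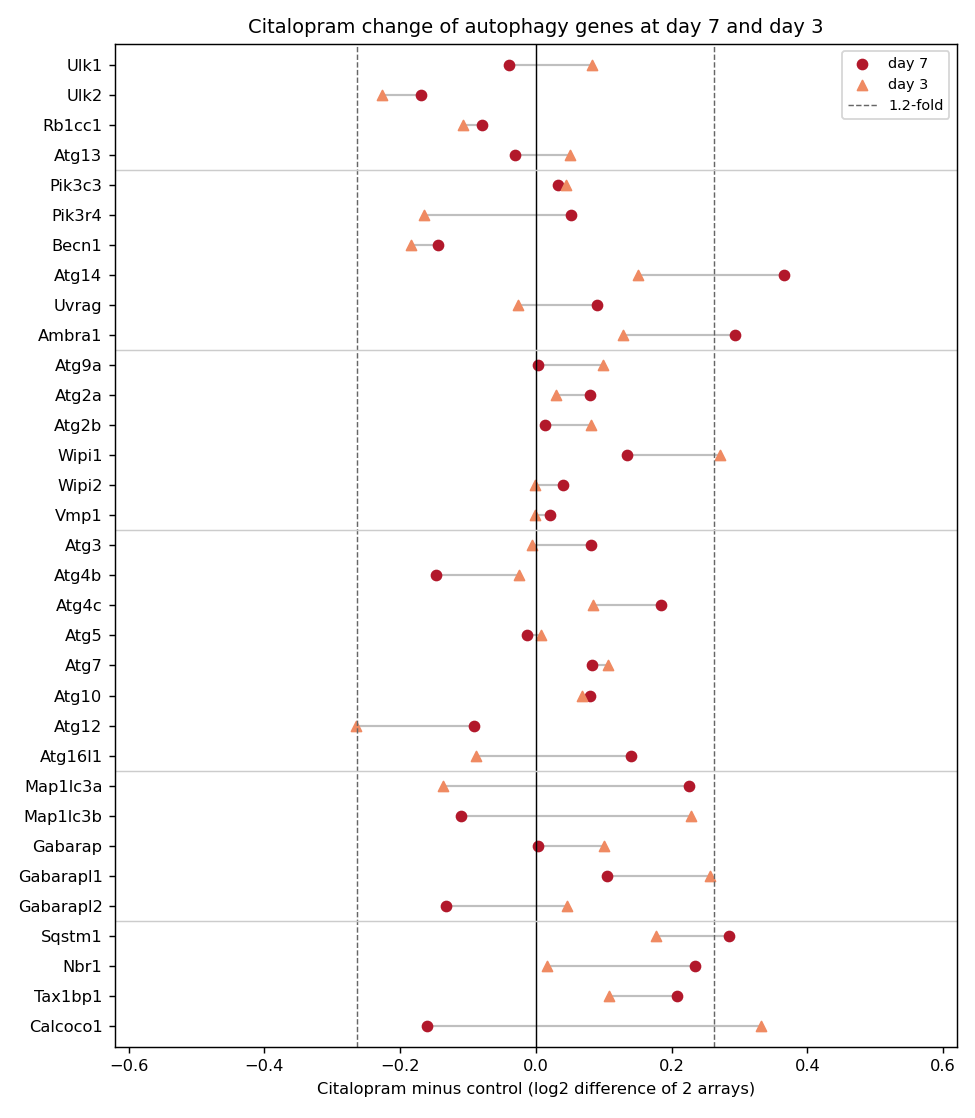
Log2 difference between the citalopram and the control array (x axis) of each autophagy gene at day 7 (circles) and day 3 (triangles), joined by a grey line; dashed lines mark 1.2-fold in either direction and each point is a difference of 2 arrays without replicates. At day 7 Atg14 (0.37), Ambra1 (0.29) and Sqstm1 (0.28) lie beyond the upper line, and at day 3 Calcoco1 (0.33) and Wipi1 (0.27) do, with Atg12 (-0.26) at the lower line.

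The citalopram differences at the 2 days shared a sign in 20 of 33 genes, 15 higher at both (45.5%) and 5 lower at both (15.2%). Of all genes, 31.2% were higher at both days and 22.0% lower at both. The sign differed in the other 13, of which 7 were higher with citalopram at day 7 alone and 6 at day 3 alone. Over the 33 genes, which share the 4 arrays and are not independent replicates, the differences at the 2 days correlated with r = 0.26, beside r = 0.181 over 11952 genes. The difference at day 7 exceeded that at day 3 by a median of 0.03, which became -0.02 when arrays were centred on their medians. It did so most in Map1lc3a (0.36) and Atg16l1 (0.23), and was under it most in Calcoco1 (-0.49) and Map1lc3b (-0.34). These differences between days were not tested, for want of replicates.

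The largest differences among the autophagy genes were those between days. Between day 7 and day 3, 15 of 33 genes were higher at day 7 with citalopram (45.5%, median log2 difference -0.02) and 14 in control (42.4%, median -0.04), beside 44.2% and 47.2% of all genes. Among citalopram arrays, 1.2-fold or more was reached by 2 genes that were higher at day 7 (6.06%, against 12.0% of all genes) and by 1 that was lower (3.03%, against 18.2%). In control, 2 were higher (6.06%, against 9.18%) and 2 lower (6.06%, against 11.6%). None of the 33 reached 1.5-fold, as 4.81% of all genes did with citalopram and 2.29% in control. Centring each array on its median moved the median of all genes to -0.19 with citalopram and -0.12 in control; the autophagy medians then were -0.17 and -0.15, and 9 and 8 genes were at least 1.2-fold lower at day 7.

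Atg14 and Atg4b were the genes that passed 1.2-fold in both treatments. That was 1 of 33 higher at day 7 (3.03%, against 4.26% of all genes) and 1 lower (3.03%, against 6.02%). Atg14 was higher at day 7 than at day 3 by 0.53 with citalopram (1.44-fold) and by 0.32 in control (1.24-fold). Limma's change for day was 0.42 with an SE of 0.11 (adjusted p 0.0822). Atg4b, a protease for ATG8 proteins, was at -0.46 with citalopram and -0.34 in control, with a limma change of -0.40 and an SE of 0.10 (adjusted p 0.0825). Neither passed the threshold of 0.05, and limma called 0 of the 33 for day, against 348 of 12415 genes (2.8%). Limma's unadjusted p for day was under 0.05 in 3 of the 33, against 2496 of the 12415 genes. Atg14 was called after quantile normalization (adjusted p 0.0286), after cyclic loess (0.0278) and with a higher floor (0.0342), and Atg4b was called there too (0.0146, 0.038 and 0.037), but Atg14 was not after median centring (0.091). Over all alternatives the adjusted p ran between 0.0278 and 0.215 for Atg14 and between 0.00271 and 0.142 for Atg4b.

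Of the other genes with the largest differences by day, Calcoco1 was higher at day 7 by 0.06 with citalopram and by 0.55 in control (1.46-fold), where 1.37% of all genes had a more positive difference. Map1lc3a was at 0.32 with citalopram and -0.04 in control. Sqstm1 was at 0.26 with citalopram and 0.15 in control, and Pik3r4 at 0.26 and 0.04. On the lower side at day 7 in both treatments were Atg10 (-0.24 with citalopram and -0.25 in control), Atg12 (-0.14 and -0.31), Pik3c3 (-0.18 and -0.17) and Gabarapl1 (-0.23 and -0.08). The unadjusted p of Atg10 was 0.0428, and its adjusted p was 0.23. Over the 33 genes, the day differences in the 2 treatments correlated with r = 0.58, beside r = 0.566 over 11977 genes, and 10 genes were higher at day 7 in both (30.3%, against 28.2% of all genes) and 14 lower in both (42.4%, against 36.7%).

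**Figure D3:**
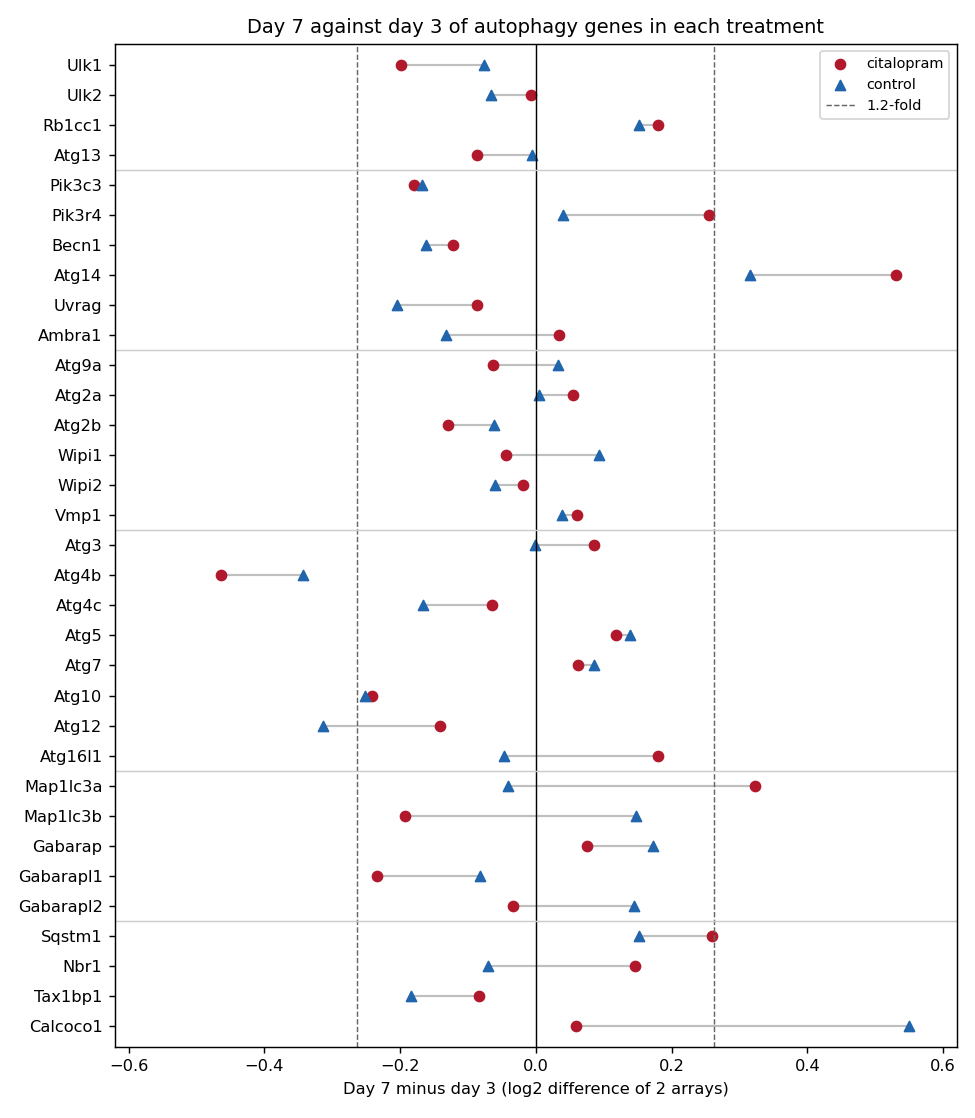
Log2 difference between the day 7 and the day 3 array (x axis) of each autophagy gene with citalopram (circles) and in control (triangles), joined by a grey line; dashed lines mark 1.2-fold and each point is a difference of 2 arrays without replicates. Atg14 lies beyond the upper line in both treatments (0.53 and 0.32) and Atg4b beyond the lower line in both (-0.46 and -0.34), while Calcoco1 is at 0.06 with citalopram and at 0.55 in control.

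Other genes of the pathway were taken from lists by role. Limma called 0 of 70 for citalopram and 0 of 70 for day, as it did for the 11 proliferation genes. With citalopram, 11 of the 70 were higher by 1.2-fold or more at day 7 (15.7%, against 9.86% of all genes) and 4 were lower (5.71%, against 9.07%). At day 3, 8 were higher (11.4%, against 8.94%) and 3 lower (4.29%, against 4.96%).

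There were 7 transcriptional regulators above the floor (MiT/TFE and FOXO factors and Zkscan3). With citalopram, 6 were higher at day 7 (85.7%, median 0.15), beside 51.3% of all genes (median 0.01). At day 3, 5 were higher (71.4%, median 0.24), beside 57.7% (median 0.03). The MiT/TFE genes among the 7 were named after their values were seen. At day 7 and day 3, Tfe3 was at 0.15 and 0.21, Mitf at 0.09 and 0.32, and Tfeb at 0.09 and -0.21. Zkscan3, known as a repressor of autophagy genes, was at 0.37 and 0.28, beyond 1.2-fold at both days (adjusted p 0.413). Foxo3 was at 0.35 and 0.26, and Foxo1, likewise a FOXO factor, at 0.23 and 0.24. Foxo4, named after its values were seen, lay the other way, at -0.12 and -0.03.

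Of 28 genes for control by mTORC1 and AMPK, 17 were higher with citalopram at day 7 (60.7%, median 0.07), beside 51.3% of all genes. At day 3, 18 were higher (64.3%, median 0.06), beside 57.7%. Rragd, of a GTPase that brings mTORC1 to lysosomes, was at 0.40 and 0.35, with both control arrays under the floor (6.37 with citalopram and 5.97 in control at day 7, and 6.25 with citalopram and 5.89 in control at day 3). Tbc1d7, of a subunit of the TSC complex that restrains mTORC1, was at -0.24 and -0.41. Prkaa2, an AMPK catalytic subunit gene, was at 0.74 at day 7 (8.11 with citalopram and 7.38 in control). At day 3 it was at -0.10 (7.84 with citalopram and 7.94 in control), so that the control array of day 7 was the low one. Prkaa2 was the only one of the 70 past 1.5-fold with citalopram. Deptor, of an mTOR inhibitor, was at -0.10 and 0.40, and its citalopram arrays differed by -0.65 between day 7 and day 3.

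Of 24 other core and fusion genes, 10 were higher with citalopram at day 7 (41.7%, median -0.06), beside 51.3% of all genes. At day 3, 16 were higher (66.7%, median 0.06), beside 57.7%. The largest mean differences were those of Vps18, of the tethering complex for fusion with lysosomes (0.15 and 0.40), the WIPI family gene Wdr45b (-0.12 and -0.36) and the lysosome adaptor gene Plekhm1 (0.21 and 0.24). Of 11 other receptor and adaptor genes, 5 were higher at day 7 (45.5%, median -0.01), beside 51.3% of all genes. At day 3, 10 were higher (90.9%, median 0.12), beside 57.7%. Stbd1, of a glycogen receptor, was at 0.44 and 0.06, and Wdfy3, of an adaptor for protein aggregates, at 0.32 and 0.13. Ccpg1, of an endoplasmic reticulum receptor, was at -0.22 and -0.22.

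**Figure D4:**
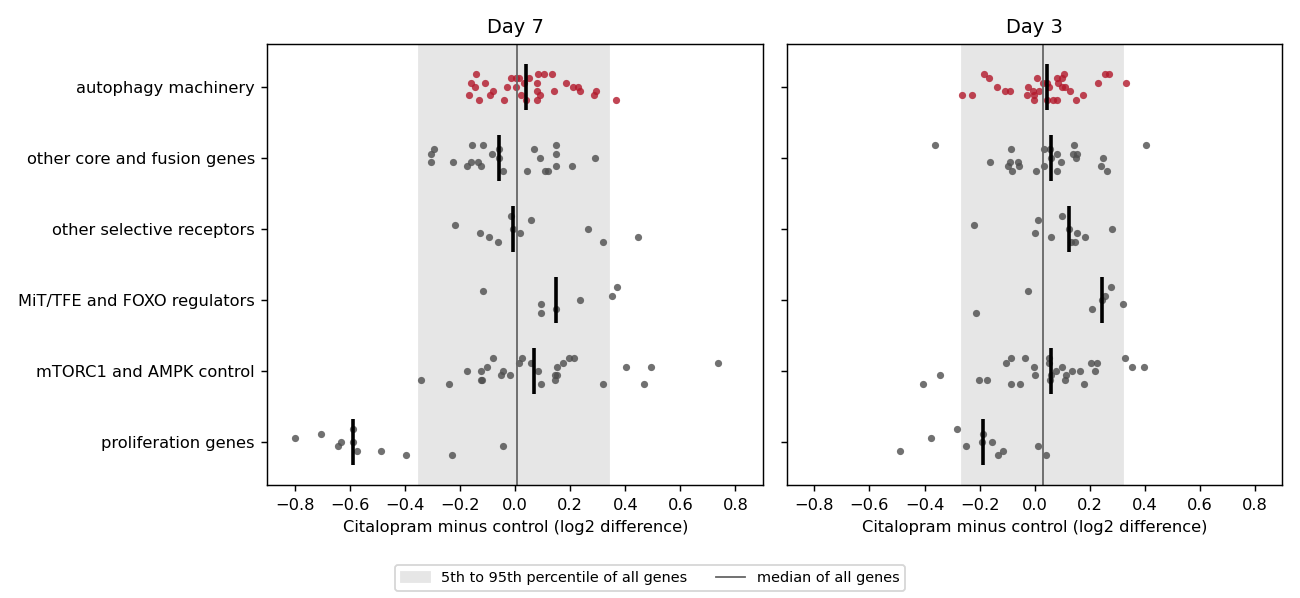
Log2 difference between citalopram and control (x axis) at day 7 (left) and day 3 (right); each point is a gene above the floor, black bars are list medians, the grey band spans the 5th to 95th percentile of all genes and the grey line is their median. The autophagy machinery centres near the median of all genes (0.04 at day 7 and 0.05 at day 3). The medians of the MiT/TFE and FOXO regulators lie to the right (0.15 and 0.24). Those of the proliferation genes lie to the left (-0.59 and -0.19).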

How the data were processed

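Trizol-extracted RNA was labelled as cDNA for an Affymetrix whole-transcript array, per the labels' protocols. The deposited values are log2 values, 1 per feature and array; Partek is named in the submitters' processing notes, and the normalization and the base of the logarithm (inferred from the range, 3.90 to 15.5) are not stated in the sources used here.

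Genes were named from features with 1 symbol (21789 of 35556; 1621 had several and 12146 none) in the platform annotation. For each gene the feature with the highest mean was kept. All 33 measured autophagy genes had features with 1 symbol, and their Entrez numbers matched the RefSeq table of GRCm38.p6. Differences of log2 values were counted where the brighter array reached the 40th percentile of genes. Limma 3.58.1 (R 4.3.3, lmFit and eBayes, two-sided, Benjamini-Hochberg over 12415 genes) had additive terms for treatment and day, with 1 residual degree of freedom. The fit was also run on simulated data with equal noise in all genes and changes alike at both days. That run does not show how the fit performs on these arrays. Counts and figures were made in Python 3.11.15 (numpy 2.4.6, pandas 2.3.3, matplotlib 3.10.9).

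The members and lists were chosen with earlier results of these data known. Values on every array were given for genes above the floor among the 5 highest and 5 lowest by mean citalopram or mean day difference, the 4 whose citalopram difference varied most between days, and the ATG8 family. Pathway genes that are no members were named where past 1.5-fold or among the 3 largest of their list by mean citalopram difference. Other scalings, floors and feature choices were tried.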

Additional observations from a re-analysis of the deposited data

Results flagged for a closer look

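In 3 autophagy genes the citalopram difference had opposite signs at day 7 and day 3 and the 2 differences lay at least 1.2-fold apart; this was not tested. For Map1lc3a the change at day 7 exceeded that at day 3 by 0.36 (0.23 and -0.14). For Map1lc3b the same subtraction gave -0.34 (-0.11 and 0.23). For Calcoco1 it gave -0.49 (-0.16 and 0.33).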

How the results depend on the processing

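Arrays could not be paired by replicate, because each group has 1 array and the labels give no replicate numbers to pair by. The limma fit itself compares treatments within days, and a fit without that term was one alternative. With 1 array per group, no array could be left out of the limma fit with both terms. Array scaling mattered most. With arrays centred on their medians, 1 autophagy gene was at least 1.2-fold higher with citalopram at day 7. For day 7 against day 3, that scaling gave 1 gene higher and 9 lower with citalopram (median -0.17), and 1 higher and 8 lower in control (median -0.15). At day 3, 1 gene was at least 1.2-fold higher with citalopram under both quantile normalization and cyclic loess. Limma's count over all genes for citalopram was 103 with median centring, 40 with cyclic loess, 139 with quantile normalization and 7 with a floor at the 60th percentile, and it called 0 autophagy genes in each. For day, the counts were 2294, 1018, 1544 and 744, with 3 autophagy genes after median centring (Atg4b, Atg10 and Atg12) and 2 (Atg14 and Atg4b) in each of the others; they were 190 with no floor and 68 without treatment as a term, with 0 autophagy genes. Of 91 recomputed values of named genes past 1.2-fold, 0 changed sign under these scalings, feature choices and floors. Only the 3 other scalings could change them. A floor leaves a value as it is, and each of these genes had 1 feature. Of the 123 summary values recomputed, 100 stayed near the reported one and 23 did not. Among single genes these were 850 and 70, 66 of the 70 under median centring. Many of the 850 could not move, for the same reasons. The alternatives for the citalopram difference at day 7 minus that at day 3 were chosen after seeing the data, and its median then lay between -0.02 and 0.05. Features with 1 symbol were the ones already used, so that choice changed nothing.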
